A study of Caenorhabditis elegans with 12 samples.

Results

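The abu and pqn genes of Caenorhabditis elegans were followed in RNA-seq of whole larvae approaching dauer, an arrested and long-lived larval stage. The members are all genes whose WormBase symbol is abu or pqn followed by a hyphen and a number. There were 70 of them, 14 abu and 56 pqn genes, among the 22113 genes of the deposited tables, and all 70 are protein-coding. Of these, 61 (11 abu and 50 pqn genes) had enough counts to be tested.

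Each of 4 groups held 3 libraries: daf-2(e1370);daf-42(ys54) animals at 60 h after egg laying, daf-2(e1370) animals at 60 h, daf-2(e1370);daf-42(ys54) animals at 52 h, and daf-2(e1370) animals at 52 h. All groups carried the e1370 allele of daf-2, which encodes the insulin-like receptor and whose reduced function drives larvae into dauer at a raised temperature. The animals below called double mutants also carried the ys54 allele of daf-42. Eggs were laid at 15°C over 2 h and the animals were then kept at 25°C, and the series describes them as late L2d, the stage before dauer. Per the labels, the double mutant harvest at 60 h held dead as well as living L2d larvae, so genotype and death cannot be told apart at that time. The share of dead larvae is not given in the sources used here. Nothing in the labels says whether replicates came from separate cultures, so p-values measure the spread between these libraries, which may be technical.

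The symbol abu stands for activated in blocked unfolded protein response, because abu-1 was first found raised when the endoplasmic reticulum was stressed in animals lacking the usual xbp-1 response. The symbol pqn stands for prion-like, rich in glutamine and asparagine, and was given by sequence, so pqn genes do not form 1 functional class. A subset of both groups encodes secreted, disordered proteins of the cuticle that lines the pharynx, the feeding organ. That cuticle is shed and rebuilt with each moult, and the transcripts of this subset rise and fall with the moulting cycle. Other pqn genes act elsewhere, such as pqn-41, which is needed for the death of the linker cell in males, and pqn-59, the ortholog of the human stress granule protein UBAP2L. Whole-animal RNA does not show which tissue a transcript came from, so the genes are called here by their symbols.

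Libraries held between 30011686 and 43519410 estimated counts. The transcript of daf-42 averaged 165.7 ± 100 CPM in double mutants and 1154 ± 732 CPM in daf-2 animals at 60 h (SD, n = 3 each), where CPM is the count scaled to library size after TMM. At 52 h it averaged 780.4 ± 97.0 CPM in double mutants and 1647 ± 562 CPM in daf-2 animals, a log2 fold change of -1.08 that did not pass the test. No marker of pharyngeal muscle, body wall muscle, pharyngeal glands, intestine, epidermis or neurons was at 0 in any library. In RNA from whole animals, fewer cells of a type and less RNA per cell cannot be told apart.

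The members lie on all 6 chromosomes, with 19 on V, 12 each on III and X, 10 on IV, 9 on II and 8 on I (WBcel235). Most stand alone, but 18 of the 70 lie within 50 kb of another member, in 7 clusters. The largest by span, on V at 5158602 to 5194608, holds abu-15 on the forward strand and abu-6, abu-7 and abu-8 on the reverse strand. Another group of 4, on IV at 15579086 to 15596645, holds pqn-76, abu-5, pqn-78 and pqn-79. The genes abu-1 and pqn-2 lie head to head on V at 10380340 to 10384063, and pqn-57 and abu-9 likewise on X at 8319594 to 8323343. The remaining clusters are pqn-90 with pqn-91 (IV), pqn-20 with pqn-21 (I) and pqn-67 with pqn-68 (V).

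Shared reads were concentrated in these clusters. The deposited estimated counts divide a read that matches several transcripts, and a gene sum that is not whole marks such sharing between genes. Of the 70 members, 15 had a sum that was not whole in at least 1 library, of which 13 lie in the clusters. The sums of abu-15 and abu-7 were not whole in all 12 libraries, those of abu-1 and pqn-2 in 11, that of abu-6 in 10 and that of abu-8 in 9. The sums of pqn-57 and abu-9 were not whole in 3 libraries each. Outside the clusters, the same was seen for pqn-80 in 8 libraries and pqn-96 in 2 libraries. Values of these genes are therefore uncertain, and 9 of the 15 were among the tested members. In addition, 11 members have exons that overlap another gene of the tables. Among them are pqn-22 with C46G7.1, pqn-39 with F48F7.3, abu-13 with F57B9.3 and pqn-48 with rpn-11, each on the opposite strand. The library kit keeps strand, but whether the counting used it is not given in the sources used here.

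The 9 members that were not tested are abu-4, abu-5, abu-6, pqn-76, pqn-78, pqn-79, pqn-84, pqn-90 and pqn-91. Their totals over all 12 libraries ranged from 2 to 61 counts, and no library held more than 13.9 counts of any of them. Of these genes, 7 lie in the clusters. The tested member abu-9 had counts in 3 libraries only, namely 16.4 and 8.58 counts in double mutants at 60 h and 14.2 counts in daf-2 animals at 52 h, and no fold change is given for it.

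Levels differed widely between members. By TPM, the share of a library's transcripts after allowing for transcript length, 9 members averaged at least 100 TPM over the 12 libraries, 47 averaged between 1 and 100 TPM and 14 averaged less than 1 TPM, with a median of 14.5 TPM. The 6 most abundant held 42.7% of the summed TPM of all members. These were pqn-32 (310.9 TPM), pqn-83 (218.7 TPM), abu-14 (197.3 TPM), pqn-53 (182.9 TPM), pqn-59 (157.8 TPM) and pqn-70 (139.8 TPM). The gene abu-14, whose protein has been placed in the pharyngeal cuticle, was the most abundant abu gene.

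The most abundant members did not share 1 pattern over the groups. The level of pqn-32 averaged 88.3 ± 83.4 TPM in double mutants and 158 ± 96.9 TPM in daf-2 animals at 60 h, and 534.1 ± 139 TPM in double mutants and 463.2 ± 23.7 TPM in daf-2 animals at 52 h. It was lower in each 60 h library than in every 52 h library. In contrast, pqn-83 averaged 324.8 ± 122 TPM in double mutants and 230.1 ± 49.2 TPM in daf-2 animals at 60 h, and 166.2 ± 21.4 TPM in double mutants and 153.9 ± 4.73 TPM in daf-2 animals at 52 h. The level of pqn-70 stayed within a narrow range, with 122.4 ± 5.37 TPM in double mutants and 131.8 ± 15.9 TPM in daf-2 animals at 60 h, and 146.8 ± 10.5 TPM in double mutants and 158.3 ± 10.1 TPM in daf-2 animals at 52 h (SD, n = 3 throughout).

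Replicates differed most at 60 h, and the members moved together between them. The summed level of the 14 abu genes was 507.1, 106.3 and 249.1 TPM in the double mutant libraries at 60 h, against 575.8, 1074 and 243 TPM in the daf-2 libraries. At 52 h it was 863.2, 541.1 and 585.9 TPM in the double mutant libraries, against 493.3, 598.7 and 623.5 TPM in the daf-2 libraries. The genotypes overlapped at both times. The 56 pqn genes summed to 2058, 1116 and 1790 TPM in the double mutant libraries and 2382, 3438 and 1772 TPM in the daf-2 libraries at 60 h, with replicates ordered as for the abu genes. All members together took between 0.269% and 0.717% of the counts of a library.

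**Figure D1:**
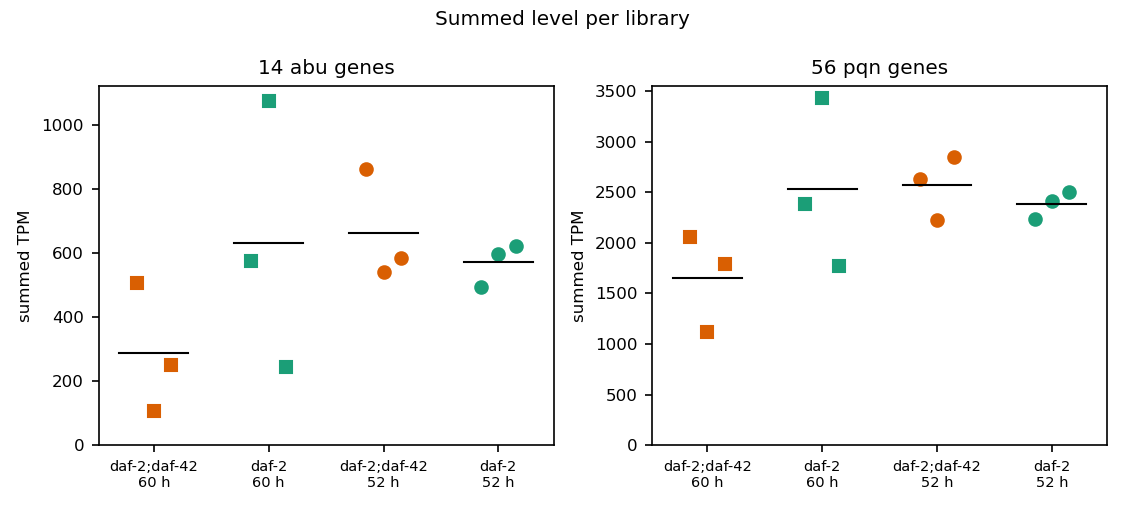
Summed TPM of the 14 abu genes and of the 56 pqn genes in each of the 12 libraries, 1 point per library, by group. The points of the 60 h groups lie farthest apart, with abu sums between 106.3 and 507.1 TPM in double mutants and between 243 and 1074 TPM in daf-2 animals.

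The same order showed gene by gene. Replicate 2 of the double mutants at 60 h held the lowest of the 3 values for 47 of the 61 tested members (77%), against 41.2% of all tested genes. Replicate 1 of that group held the highest value for 43 members (70.5%), against 38.8% of all genes. In daf-2 animals at 60 h, replicate 2 was highest for 41 members (67.2%, against 31.9% of all genes) and replicate 3 was lowest for 41 members (67.2%, against 36.1% of all genes). The median SD of log2 CPM over the members was 0.71 in double mutants and 0.587 in daf-2 animals at 60 h, against 0.301 in double mutants and 0.193 in daf-2 animals at 52 h. Over all tested genes these medians were 0.382, 0.371, 0.209 and 0.187 in the same order of groups. All comparisons that use a 60 h group therefore rest on members that varied more between replicates than the typical gene.

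Between 52 h and 60 h in daf-2 animals, 22 of the 61 members changed, 14 higher and 8 lower at 60 h. This is 36.1% of the members, against 34.7% of all 16371 genes tested (18.5% higher and 16.2% lower). The median log2 fold change was 0.30 over the members and 0.07 over all genes. Of the 11 tested abu genes, 5 rose (abu-7, abu-8, abu-10, abu-11 and abu-15) and abu-13 fell. Of the 50 tested pqn genes, 9 rose and 7 fell. A gene was called changed at an adjusted p under 0.05 in edgeR's quasi-likelihood test, with Benjamini-Hochberg adjustment over all tested genes, and all adjusted p-values below come from that fit. The members abu-1, abu-2, abu-7, abu-8, abu-11, pqn-8, pqn-10, pqn-16, pqn-18, pqn-20, pqn-21, pqn-24, pqn-26, pqn-27, pqn-29, pqn-31, pqn-36, pqn-41, pqn-52, pqn-57, pqn-62, pqn-67, pqn-68, pqn-80, pqn-82 and pqn-87 are named after their values were seen, outside the fixed rule for naming.

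Among the pqn genes that rose with time in daf-2 animals, the largest fold change was that of pqn-37 (X, 3247042 to 3250531). It had 32.5, 66.2 and 42.6 CPM in the 60 h daf-2 libraries, against 3.58, 4.74 and 5.17 CPM in the 52 h daf-2 libraries, a log2 fold change of 3.39 ± 0.314 (SE, adjusted p = 7.5e-06). The lowest 60 h library was well above every 52 h library. The gene pqn-71 (V, 15465677 to 15467100) had 54.8, 86.2 and 44.3 CPM at 60 h, against 7.04, 6.13 and 6.01 CPM at 52 h (log2 fold change 3.27 ± 0.37, adjusted p = 3.68e-05). Replicates lay close together in pqn-94 (V, 20278654 to 20279861), with 106.9, 101.3 and 109.1 CPM at 60 h, against 26.2, 21.2 and 17.6 CPM at 52 h (log2 fold change 2.29 ± 0.202, adjusted p = 5.31e-06). Each of these 3 genes kept its call in all alternatives run.

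The abu genes that rose did so from different starting levels. In the 60 h daf-2 libraries abu-15 had 20.6, 40.4 and 11.8 CPM, against 3.18, 2.63 and 3.12 CPM in the 52 h daf-2 libraries (log2 fold change 3.02 ± 0.529, adjusted p = 0.000783). The gene abu-10 (X, 3798182 to 3799741) had 27.6, 42.6 and 12.3 CPM at 60 h, against 5.37, 5.29 and 5.61 CPM at 52 h (2.34 ± 0.525, adjusted p = 0.00411). Its sums were whole in all libraries, so it shares no detected reads with other genes. Of greater abundance, abu-8 had 273.7, 613.9 and 180 CPM at 60 h, against 87.9, 78.1 and 90.1 CPM at 52 h (2.06 ± 0.519, adjusted p = 0.00824). The gene abu-11, whose overexpression is known to lengthen the life of worms, had 119.8, 179.9 and 70.5 CPM at 60 h, against 40.2, 41.7 and 42.1 CPM at 52 h (1.58 ± 0.43, adjusted p = 0.0127). In all 4 genes replicate 2 was the highest 60 h library and replicate 3 the lowest, and none of the groups overlapped. Without replicate 2 of the 60 h daf-2 group, abu-11 was no longer called (1.16, adjusted p = 0.0548), while the other 3 were.

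The gene abu-7, a neighbour of abu-15 and abu-8, had 152.9, 130.2 and 48.4 estimated counts in the 60 h daf-2 libraries, against 5.28, 2.48 and 4.05 counts in the 52 h daf-2 libraries. Its log2 fold change of 5.02 ± 0.634 (adjusted p = 7.69e-05) is the largest among the members but rests on sums that share reads in all 12 libraries. When abu-15, abu-6, abu-7 and abu-8 were summed as 1 feature, the log2 fold change was 2.12 ± 0.519 (adjusted p = 0.00705). Most of that sum was abu-8, with 273.7, 613.9 and 180 of 299.4, 658.5 and 193 CPM in the 60 h daf-2 libraries. The sum therefore mainly repeats the test of abu-8 and cannot show whether abu-7 itself changed.

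**Figure D2:**
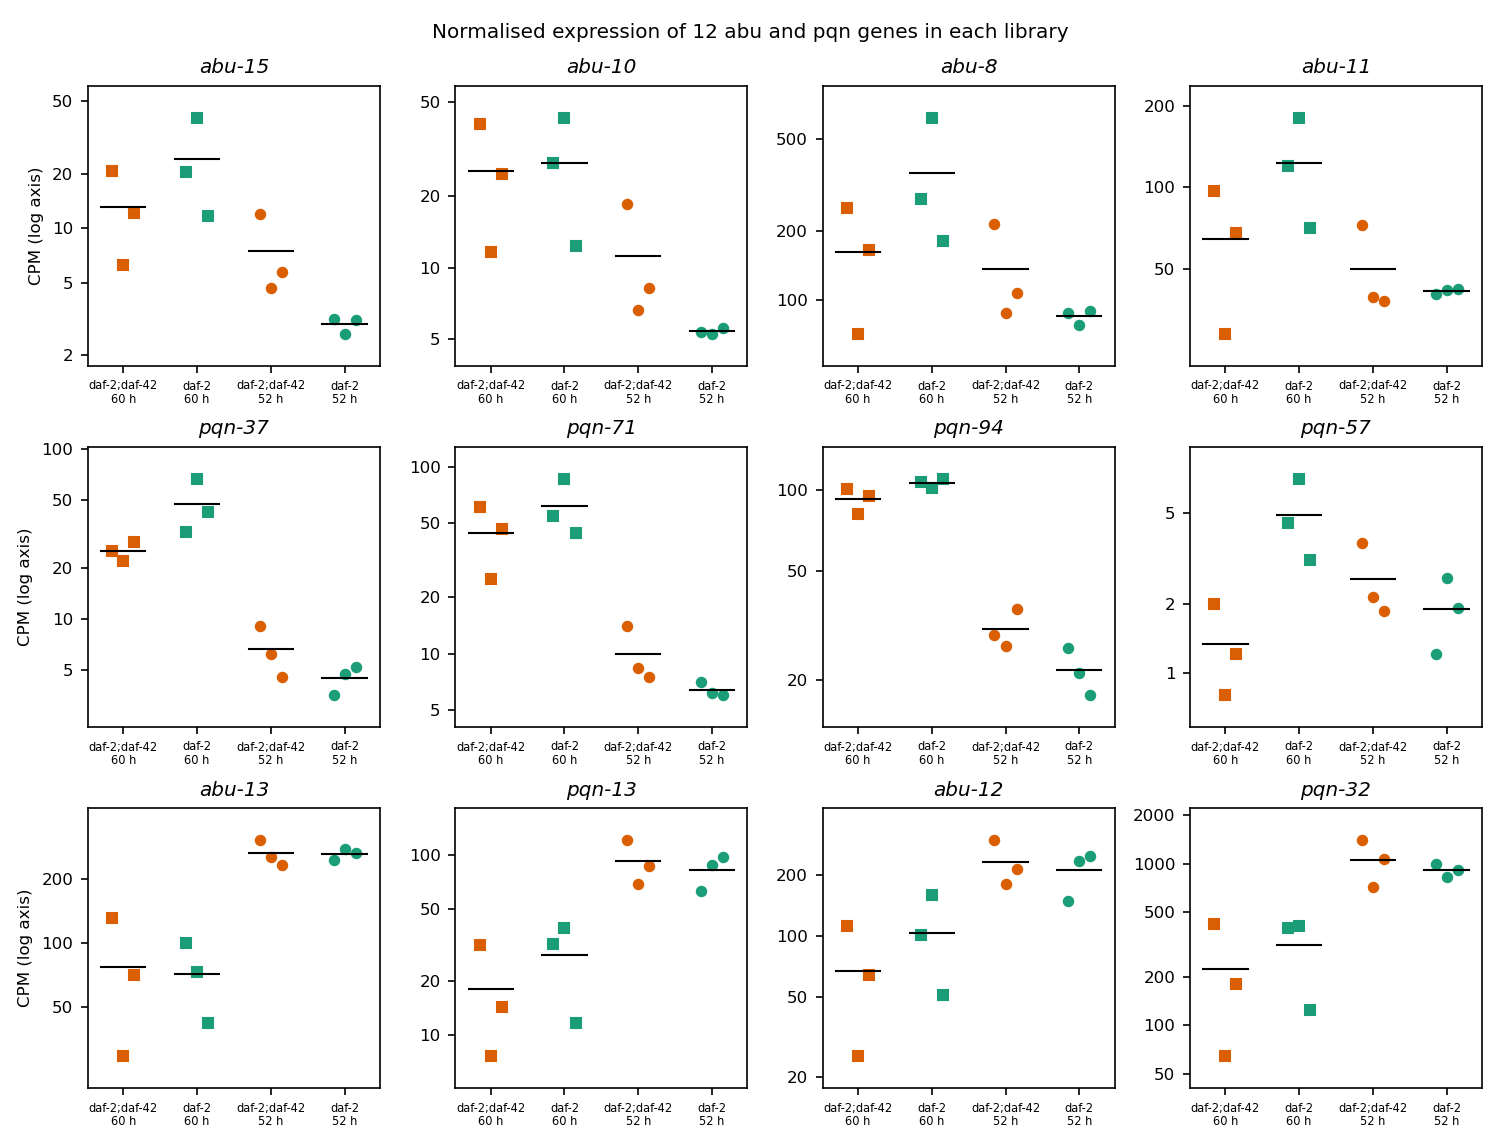
CPM on a log axis of 12 abu and pqn genes in each of the 12 libraries, with groups left to right as double mutants at 60 h, daf-2 at 60 h, double mutants at 52 h and daf-2 at 52 h, and lines at the group means. In pqn-37, pqn-71 and pqn-94 every 60 h point lies above every 52 h point, and in abu-13, pqn-13 and pqn-32 every 60 h point lies below.

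Members that fell with time in daf-2 animals were led by abu-13 among the better-counted genes. It had 100, 73 and 41.7 CPM in the 60 h daf-2 libraries, against 246.2, 275.5 and 264.9 CPM in the 52 h daf-2 libraries (log2 fold change -1.87 ± 0.445, adjusted p = 0.00582). The gene pqn-13 had 32.05, 39.2 and 11.6 CPM at 60 h, against 62.9, 88.0 and 97.4 CPM at 52 h (-1.58 ± 0.501, adjusted p = 0.0267). Its call was lost without replicate 1 or 3 of the 60 h daf-2 group, or without replicate 2 or 3 of the 52 h daf-2 group (adjusted p between 0.0526 and 0.0764). The other members that fell were pqn-67 (-1.72), pqn-10 (-1.69), pqn-29 (-1.48), pqn-73 (-1.34), pqn-48 (-0.80) and pqn-96 (-0.80). The remaining rises were those of pqn-57 (1.36), pqn-36 (1.23), pqn-31 (1.18), pqn-39 (1.17), pqn-88 (0.83) and pqn-18 (0.76). The calls of pqn-18, pqn-36, pqn-39, pqn-48, pqn-57 and pqn-88 were lost when 1 or another single library was left out, with adjusted p-values up to 0.206 for pqn-88 without replicate 3 and up to 0.199 for pqn-39 without replicate 2 of the 60 h daf-2 group.

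In the double mutants more members changed between 52 h and 60 h, and most of them were lower at 60 h. Of the 61 members, 31 changed, 10 higher and 21 lower (50.8% of the members, against 41% of all genes, 22.4% higher and 18.6% lower). The median log2 fold change was -0.65 over the members and -0.0015 over all genes. No abu gene rose, and 3 fell (abu-12, abu-13 and abu-14). Among the pqn genes 10 rose and 18 fell. The number of members called was 37, 20 and 17 without replicates 1, 2 and 3 of the 60 h double mutants, and 22, 28 and 18 without replicates 1, 2 and 3 of the 52 h double mutants. Over all genes the shares called in these fits were 50.1%, 23.9% and 26.7%, and 30.6%, 29.9% and 21.8%, in the same order. The calls of abu-13, pqn-13, pqn-21, pqn-24, pqn-26, pqn-29, pqn-37, pqn-67, pqn-71, pqn-72, pqn-73, pqn-83, pqn-88 and pqn-94 held whichever library was left out.

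The 3 pqn genes with the largest rises in daf-2 animals also rose in double mutants. In the 60 h double mutant libraries pqn-71 had 61.4, 25.3 and 46.8 CPM, against 14.1, 8.36 and 7.44 CPM in the 52 h double mutant libraries (log2 fold change 2.16 ± 0.354, adjusted p = 0.000862). The gene pqn-37 had 25.2, 21.8 and 28.4 CPM at 60 h, against 9.04, 6.22 and 4.57 CPM at 52 h (1.93 ± 0.297, adjusted p = 0.000556). The gene pqn-94 had 100.7, 81.2 and 95.1 CPM at 60 h, against 29.2, 26.7 and 36.4 CPM at 52 h (1.58 ± 0.198, adjusted p = 0.000121). No 60 h value of these genes was as low as any 52 h value. Rises were also called for pqn-88 (1.48 ± 0.291) and for the abundant pqn-83 (1.46 ± 0.291, adjusted p = 0.00289), and for pqn-24, pqn-16, pqn-68, pqn-8 and pqn-31 (0.72 to 1.19). The call of pqn-68 held in 5 of 19 alternatives and that of pqn-16 in 15.

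The abu genes that rose in daf-2 animals did not pass the test in double mutants. The gene abu-15 had 20.7, 6.26 and 12.2 CPM in the 60 h double mutant libraries, against 12.03, 4.69 and 5.72 CPM in the 52 h double mutant libraries (log2 fold change 0.81 ± 0.491, adjusted p = 0.195). The gene abu-10 had 40.3, 11.7 and 24.9 CPM at 60 h, against 18.6, 6.67 and 8.21 CPM at 52 h (1.20 ± 0.504, adjusted p = 0.0718). In both genes the groups overlapped, through the low 60 h replicate 2 and the high 52 h replicate 1. The changes of abu-8 (0.25, adjusted p = 0.704), abu-11 (0.37, adjusted p = 0.491) and abu-7 (-0.85, adjusted p = 0.28) did not pass either. A difference between the genotypes in these changes was called for abu-7 and for none of the other 4. For those, a pass in daf-2 animals and none in double mutants does not show that the genotypes differed. With a trend with transcript length removed from each library, the difference for abu-15 was called (-2.34, adjusted p = 0.0447).

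The largest falls in double mutants among the better-counted members were those of pqn-13, pqn-32 and pqn-72. In the 60 h double mutant libraries pqn-13 had 31.7, 7.66 and 14.2 CPM, against 120.6, 69.2 and 87.3 CPM in the 52 h double mutant libraries (log2 fold change -2.37 ± 0.515, adjusted p = 0.00464). The gene pqn-32 had 424.5, 64.9 and 179.9 CPM at 60 h, against 1395, 719.4 and 1064 CPM at 52 h (-2.25 ± 0.601, adjusted p = 0.0128, and 0.0504 without replicate 3 of the 60 h double mutants). The gene pqn-72 had 10.2, 2.33 and 5.22 CPM at 60 h, against 22.9, 25.8 and 31.3 CPM at 52 h (-2.17 ± 0.464, adjusted p = 0.00422). The 60 h and 52 h values did not overlap in any of the 3 genes.

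Among the abu genes that fell in double mutants, abu-13 had 130, 29.5 and 70.7 CPM at 60 h, against 303.1, 252.7 and 233.2 CPM at 52 h (log2 fold change -1.78 ± 0.444, adjusted p = 0.00936). The falls of abu-12 (-1.78 ± 0.502, adjusted p = 0.0163) and abu-14 (-1.36 ± 0.468, adjusted p = 0.0356) depended on single libraries. That of abu-12 was lost without replicate 3 of the 60 h double mutants (adjusted p = 0.0535) or replicate 1 of the 52 h double mutants (adjusted p = 0.0508). That of abu-14 was lost without replicate 2 or 3 of the 60 h or replicate 1 or 3 of the 52 h double mutants (adjusted p between 0.0556 and 0.144). The further falls were those of pqn-67 (-1.90), pqn-15 (-1.81), pqn-20, pqn-65, pqn-80, pqn-29, pqn-26, pqn-73, pqn-87, pqn-21, pqn-41, pqn-42, pqn-22, pqn-62 and pqn-10 (-1.74 to -0.66). When a trend with transcript length was removed from each library, 24 of the 31 calls in double mutants held, and 37.9% of all genes were called. That step also called rises of pqn-36 (0.72, adjusted p = 0.025), pqn-92 (0.49, adjusted p = 0.0101) and pqn-52 (0.49, adjusted p = 0.0422), and a fall of pqn-53 (-0.63, adjusted p = 0.0432). The calls lost were the falls of pqn-15 (-0.26, adjusted p = 0.0912), pqn-22 (-0.34, adjusted p = 0.118), pqn-41 (-0.12, adjusted p = 0.572), pqn-87 (-0.15, adjusted p = 0.616) and pqn-62 (0.09, adjusted p = 0.606), and the rises of pqn-16 (0.62, adjusted p = 0.0614) and pqn-68 (-0.10, adjusted p = 0.722). With replicate number as a block, taken to pair the libraries of this comparison, pqn-22 (adjusted p = 0.0523), pqn-68 (adjusted p = 0.0771) and pqn-87 (adjusted p = 0.0597) were no longer called.

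Set side by side, 5 members rose with time in both genotypes, 6 fell in both and none changed in opposite directions. These are 8.2%, 9.84% and 0% of the members, against 10.5%, 6.69% and 0.641% of all genes tested. The 5 were pqn-31, pqn-37, pqn-71, pqn-88 and pqn-94, and the 6 were abu-13, pqn-10, pqn-13, pqn-29, pqn-67 and pqn-73. A further 20 members changed in double mutants but did not pass in daf-2 animals, 15 of them lower, and 11 changed in daf-2 animals but did not pass in double mutants, 9 of them higher. Neither number by itself shows a difference between the genotypes, which the interaction tests. With the length trend removed, abu-12 (-1.13, adjusted p = 0.00751), pqn-32 (-1.56, adjusted p = 0.0182) and pqn-83 (0.74, adjusted p = 0.0303) passed in daf-2 animals as well as in double mutants.

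**Figure D3:**
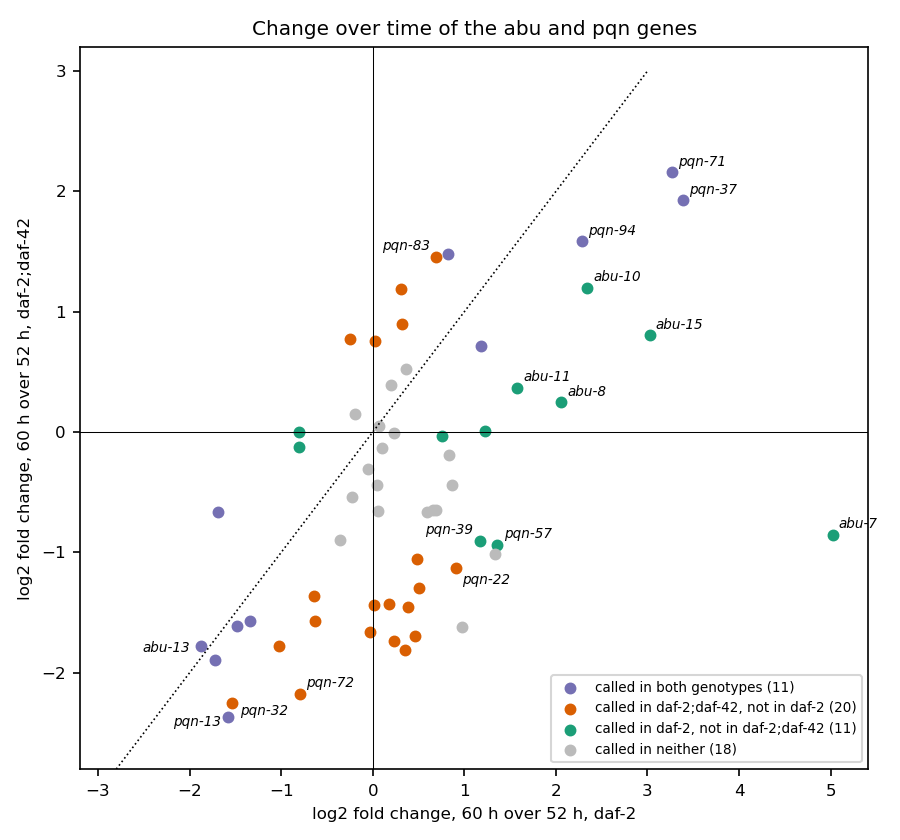
Log2 fold change of 60 h over 52 h in double mutants (vertical axis) against that in daf-2 animals (horizontal axis) for 60 tested members, without abu-9, with colours for the genotypes in which a member was called and a dotted line for equal change. Most points lie below the dotted line, with pqn-37, pqn-71 and pqn-94 at upper right and abu-13 and pqn-13 at lower left.

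At 52 h none of the 61 members was called different between double mutants and daf-2 animals in edgeR's quasi-likelihood test, against 0.635% of all genes (0.44% higher and 0.195% lower). DESeq2 also called none of the members, against 1.64% of all genes. In edgeR's test 3 of the 61 members had an unadjusted p under 0.05 (abu-7, abu-15 and pqn-94), against 988 of all 16371 genes. The median log2 fold change was 0.19 over the members and -0.0013 over all genes, and 10 of the 11 abu genes had a positive one. The value of abu-15 was 1.32 ± 0.509 (adjusted p = 0.616), with 12.03, 4.69 and 5.72 CPM in double mutants, against 3.18, 2.63 and 3.12 CPM in daf-2 animals. That of abu-10 was 1.04 ± 0.51 (adjusted p = 0.876), with 18.6, 6.67 and 8.21 CPM in double mutants, against 5.37, 5.29 and 5.61 CPM in daf-2 animals. In both, every double mutant library was above every daf-2 library, but replicate 1 of the double mutants stood well above the others. That replicate was the highest of its group for 10 of the 11 abu genes, against 35.9% of all genes.

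At 60 h, 19 of the 61 members differed between double mutants and daf-2 animals, 5 higher and 14 lower in double mutants. This is 31.1% of the members, against 34.4% of all genes (17.4% higher and 17% lower), so the share of members called was close to that of all genes. The median log2 fold change was -0.49 over the members and -0.0086 over all genes, and 48 of the 61 values were negative. Of the 19, 18 were pqn genes and 1 was an abu gene, abu-7. A model of the 60 h groups alone called only abu-7, pqn-22 and pqn-57 (14.6% of all genes). Leaving out a 60 h library also moved the count, to 36, 9 and 7 without double mutant replicates 1, 2 and 3, and to 12, 6 and 32 without daf-2 replicates 1, 2 and 3. The share of all genes called in these fits moved too, to 45.5%, 21% and 21.1%, and to 24.7%, 18.1% and 44.6%, in the same order. The calls of abu-7, pqn-22, pqn-39, pqn-57 and pqn-96 held whichever library was left out.

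The largest difference in an abundant member was in pqn-22 (IV, 6019672 to 6033639). It had 260.9, 97.5 and 175.9 CPM in the 60 h double mutant libraries, against 530.1, 883.7 and 391.7 CPM in the 60 h daf-2 libraries (log2 fold change -1.76 ± 0.381, adjusted p = 0.00534). Every double mutant library lay below every daf-2 library, and the call held in all alternatives run. The gene pqn-39 had 28.5, 8.001 and 20.7 CPM in double mutants, against 53.7, 92.9 and 39.1 CPM in daf-2 animals (-1.70 ± 0.415, adjusted p = 0.00979), again with no overlap. The gene pqn-42 had 17.9, 5.52 and 17.0 CPM in double mutants, against 36.6, 54.1 and 30.8 CPM in daf-2 animals (-1.59 ± 0.4, adjusted p = 0.0114, and 0.051 without daf-2 replicate 2). The low-abundance pqn-57 had 2.00, 0.806 and 1.22 CPM in double mutants, against 4.57, 7.06 and 3.12 CPM in daf-2 animals (-1.87 ± 0.421, adjusted p = 0.00646). Summed with its neighbour abu-9, with which it may share reads, its value was -1.61 ± 0.401 (adjusted p = 0.0108).

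The gene abu-7 had 8.97, 2.59 and 11.5 estimated counts in the 60 h double mutant libraries, against 152.9, 130.2 and 48.4 counts in the 60 h daf-2 libraries (log2 fold change -3.77 ± 0.569, adjusted p = 0.000567). For the cluster summed as 1 feature the difference did not pass the test, but most of that sum was abu-8, so it cannot decide about abu-7. The sum was 271.8, 78.0 and 177 CPM in double mutants, against 299.4, 658.5 and 193 CPM in daf-2 animals (-1.13 ± 0.505, adjusted p = 0.0973). The other abu genes that rose with time in daf-2 animals did not pass at 60 h. Their values were -0.10 for abu-10 (adjusted p = 0.884), -0.89 for abu-15 (adjusted p = 0.164), -0.94 for abu-11 (adjusted p = 0.0995) and -1.13 for abu-8 (adjusted p = 0.0962).

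The higher members at 60 h had smaller differences. The gene pqn-83 had 443, 524.9 and 895.7 CPM in double mutants, against 250.9, 332 and 437.8 CPM in daf-2 animals (log2 fold change 0.87 ± 0.288, adjusted p = 0.0356). The groups were separate by a narrow margin, and the call was lost without replicate 3 of the 60 h double mutants, replicate 1 or 2 of the 60 h daf-2 group or replicate 2 or 3 of the 52 h daf-2 group (adjusted p between 0.0529 and 0.174). The gene pqn-96 had 26.7, 32.8 and 36.8 CPM in double mutants, against 20.7, 15.1 and 21.4 CPM in daf-2 animals (0.75 ± 0.182, adjusted p = 0.00948). With time pqn-96 fell in daf-2 animals, while in double mutants its 60 h values overlapped the 52 h values of 28.7, 34.7 and 32.8 CPM. The others were pqn-8 (0.73), pqn-48 (0.63) and pqn-92 (0.54 ± 0.16, adjusted p = 0.0232). The call of pqn-48 did not hold in 9 of 12 leave-one-out fits, and that of pqn-92 in 2.

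The differences at 60 h went with transcript length. The median transcript length was 2675 bases in the 14 lower members, 1251 bases in the 5 higher members and 1536 bases in the members not called. Across the 61 members the log2 fold change and the length had a Spearman rho of -0.558, and across all tested genes -0.459. In the time comparison of the double mutants, which shares the 60 h double mutant libraries, rho was -0.703 over the members and -0.541 over all genes, and in daf-2 animals -0.175 and -0.0465. The genes, which share libraries, are not independent replicates. When a trend with length was removed from each library, the median of the members at 60 h was -0.20 and 17 members were called (34.9% of all genes), 15 of them among the 19. The 4 that were lost were pqn-15 (-0.20, 6868 bases), pqn-87 (-0.11, 5037 bases), pqn-62 (-0.06, 4367 bases) and pqn-37 (-0.64, 1880 bases). With the trend removed, pqn-65 was -0.66 against -1.74 as deposited, pqn-20 was -0.60 against -1.49 and pqn-21 was -0.61 against -1.30, all still called. The values of pqn-82 (-1.32 against -1.30) and pqn-53 (-0.83 against -0.81) moved little. The call of pqn-20 did not hold in 9 of 12 leave-one-out fits.

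**Figure D4:**
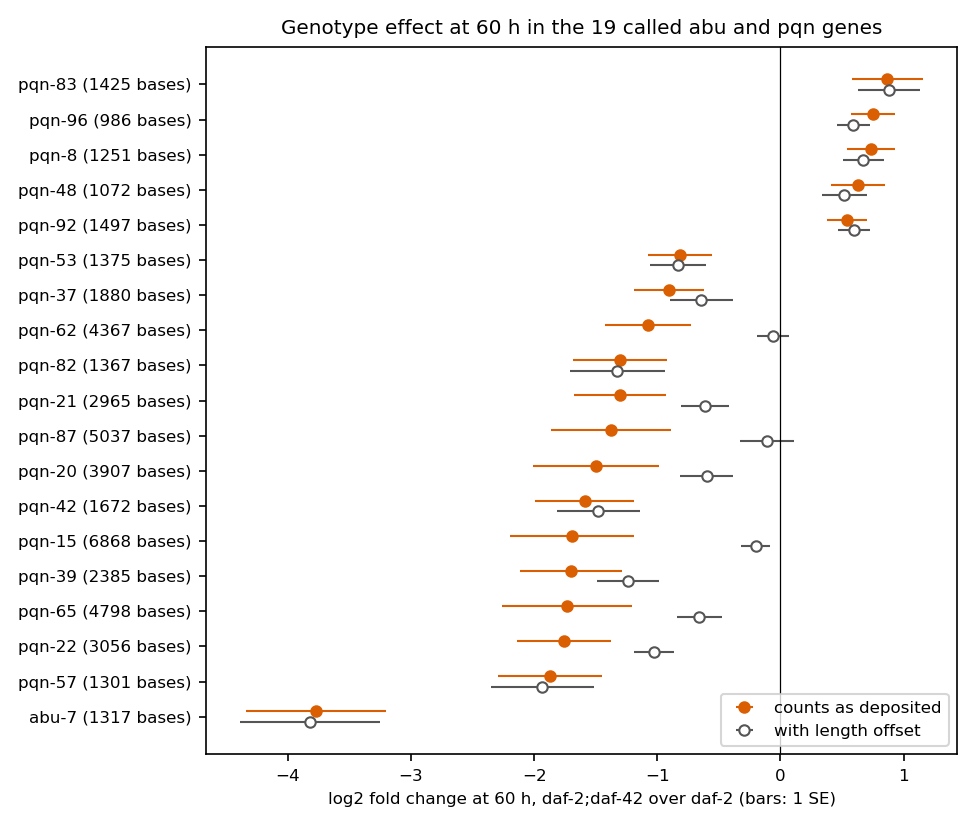
Log2 fold change of double mutants over daf-2 animals at 60 h for the 19 called members, ± 1 SE, from counts as deposited and with the length trend of each library removed, with each transcript length given. The values of the longest transcripts, such as pqn-15 and pqn-87, move to near 0 with the trend removed, while abu-7, pqn-57, pqn-22 and pqn-39 stay well below 0.

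Markers of other tissues moved in both directions at 60 h. The summed level of the body wall muscle genes myo-3, unc-54 and unc-15 was between 1867 and 7487 CPM in double mutants and between 9326 and 34600 CPM in daf-2 animals, and 2 of the 3 were called lower. That of 5 pharyngeal muscle genes was between 380.7 and 731 CPM in double mutants and between 628.1 and 1460 CPM in daf-2 animals, with none of the 5 called. Within that sum, myo-1 (-1.47) and myo-2 (-1.64) were negative while tnc-2 (0.50) and tni-4 (0.44) were positive. That of 10 pharyngeal gland genes was between 482.9 and 585.3 CPM in double mutants and between 305.3 and 405.4 CPM in daf-2 animals, and 3 of the 10 were called higher. Of the 10 differences, 8 were positive and 2 negative. Averages in double mutants and daf-2 animals were 150.7 and 73.0 CPM for phat-2 and 139.9 and 59.6 CPM for phat-8. The 2 negative genes were dod-6 (138.4 and 174.6 CPM) and hlh-6 (3.96 and 4.47 CPM). Of 3 intestine genes, 1 was called higher (ges-1, 0.87), and the lowest value of the 3 was -0.06. Of 3 epidermis genes, 1 was called higher and 1 lower, and none of 3 neuron genes was called. The part of tissue composition in the members' differences was not tested.

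The change with time differed between the genotypes for 5 members, all with a more negative change in double mutants. This is 8.2% of the members, against 9.52% of all genes (5.58% higher and 3.94% lower). The interaction, the log2 change in double mutants minus that in daf-2 animals, was -5.87 ± 0.895 for abu-7 (adjusted p = 0.00276), -2.30 ± 0.586 for pqn-57 (adjusted p = 0.0324), -2.07 ± 0.577 for pqn-39 (adjusted p = 0.0443), -2.03 ± 0.529 for pqn-22 (adjusted p = 0.0348) and -1.46 ± 0.41 for pqn-37 (adjusted p = 0.0454). Thus pqn-37 rose in both genotypes, with a log2 change of 1.93 in double mutants and 3.39 in daf-2 animals. The gene pqn-22 fell with time in double mutants (-1.12, adjusted p = 0.0317), and its change in daf-2 animals of 0.91 did not pass (adjusted p = 0.079). With the length trend removed, pqn-22 was called in daf-2 animals (0.80, adjusted p = 0.00133) and not in double mutants (-0.34, adjusted p = 0.118), so which genotype changed depends on that step. The interactions of pqn-57, pqn-39, pqn-22 and pqn-37 lost their calls when any of several single libraries was left out, in 7, 10, 9 and 9 of 12 such fits. The interaction of the summed cluster that holds abu-7, most of it abu-8, was -1.84 (adjusted p = 0.101), which cannot decide about abu-7. For pqn-57 summed with abu-9 the interaction was -1.95 (adjusted p = 0.049).

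Over all members the median interaction was -0.79, against 0.04 over all genes, and 47 of 61 values were negative, among them 9 of the 11 abu genes. Among the abu genes, the larger negative values that did not pass were those of abu-2 (-2.60, adjusted p = 0.136), abu-1 (-2.35, adjusted p = 0.0676), abu-15 (-2.21, adjusted p = 0.0637) and abu-8 (-1.81, adjusted p = 0.104). Uncalled pqn genes had negative values of similar size, namely pqn-15 (-2.16, adjusted p = 0.0662), pqn-65 (-2.16, adjusted p = 0.0733), pqn-20 (-1.97, adjusted p = 0.0862), pqn-87 (-1.84, adjusted p = 0.092) and pqn-42 (-1.81, adjusted p = 0.058). With the length trend removed, 15.2% of all genes were called. That step added abu-15 (-2.34, adjusted p = 0.0447), pqn-42 (-1.685, adjusted p = 0.0302) and pqn-94 (-1.03, adjusted p = 0.0294) to the called members. The number of members called was 24 without replicate 1 of the 60 h double mutants (28% of all genes) and 23 without replicate 3 of the 60 h daf-2 group (24.9% of all genes). Without any other single library it was between 1 and 3 (3.87% to 6.34% of all genes).

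Gene lists that share a tissue or process with the members gave a mixed picture, to be read against all genes tested, of which 22.4% rose and 18.6% fell with time in double mutants and 18.5% rose and 16.2% fell in daf-2 animals. The intrinsically disordered pharyngeal proteins (31 idpa, idpb, idpc and idpp genes) had 5 genes higher and 5 lower with time in double mutants (16.1% each way), and 6 higher and 6 lower in daf-2 animals (19.4% each way), near the shares of all genes. At 60 h, 6 were higher and 2 lower in double mutants than in daf-2 animals (19.4% and 6.45%, against 17.4% and 17% of all genes). The gene idpp-14 rose in both genotypes as pqn-37 did, with a log2 change of 2.15 ± 0.183 in double mutants and 3.36 ± 0.192 in daf-2 animals and an interaction of -1.20 (adjusted p = 0.0144). The only other called interaction in this list went the other way, that of idpp-8 (1.44, adjusted p = 0.0372). These are 3.23% each way, against 5.58% higher and 3.94% lower over all genes, and the list's median interaction was 0.20. The median log2 change of this list with time was -0.02 in double mutants and -0.21 in daf-2 animals.

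Of 20 moulting genes, 3 rose and 10 fell with time in double mutants (15% and 50%), and 4 rose and 7 fell in daf-2 animals (20% and 35%). The gene nas-37, which encodes a protease needed for shedding the old cuticle, averaged 17.7 ± 2.05 CPM in double mutants and 91.0 ± 19.3 CPM in daf-2 animals at 60 h (SD, n = 3 each). At 52 h it averaged 6.06 ± 0.359 CPM in double mutants and 5.87 ± 0.16 CPM in daf-2 animals. Its interaction was -2.41 ± 0.252 (adjusted p = 0.000297). Of the 20 genes it alone had a called negative interaction (5%), while 2 had a called positive one (10%). Over all genes these shares were 3.94% and 5.58%. Of 5 tested genes for chitin synthesis and breakdown, none was called higher at 60 h in either genotype. With time 4 fell in double mutants (80%) and 3 in daf-2 animals (60%), and 2 had a called positive interaction (40%). The chitin synthase chs-2, which acts in the pharynx, fell in double mutants (-1.74 ± 0.37, adjusted p = 0.00413), and its change in daf-2 animals was -0.78 (adjusted p = 0.114). Of 8 pharyngeal transcription factors, 3 fell in double mutants (37.5%) and 1 fell in daf-2 animals (12.5%), with peb-1 called in both (-2.14 in double mutants and -1.65 in daf-2 animals).

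Among genes of the endoplasmic reticulum unfolded protein response, none was called higher at 60 h than at 52 h in either genotype. Of 18 tested, 10 fell with time in double mutants (55.6%) and 3 in daf-2 animals (16.7%, near the 16.2% of all genes). The chaperone gene hsp-4, a standard reporter of this response, averaged 256.4 ± 71.97 CPM in double mutants and 213.7 ± 7.34 CPM in daf-2 animals at 60 h, and 555 ± 140 CPM in double mutants and 647.9 ± 239 CPM in daf-2 animals at 52 h. The fall of hsp-4 with time was called in both genotypes (-1.11 in double mutants and -1.60 in daf-2 animals), and its genotype difference at 60 h was not (0.26, adjusted p = 0.517). The gene xbp-1, the transcription factor whose loss gave the abu genes their name, was called in none of the comparisons. The level of abu-1 itself averaged 1.85 ± 0.834 CPM in double mutants and 4.40 ± 3.49 CPM in daf-2 animals at 60 h, and 3.76 ± 1.69 CPM in double mutants and 1.73 ± 0.238 CPM in daf-2 animals at 52 h, and was called in none. None of these lists had a called gene at 52 h.

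In pqn-72 and pqn-27 the share of the leading transcript was lower in daf-2 animals at 60 h than in the other groups. The transcript W01B11.5c.1 held 83.7 ± 3.27% of the TPM of pqn-72 in double mutants and 59.0 ± 6.15% in daf-2 animals at 60 h. At 52 h it held 89.7 ± 2.67% in double mutants and 91.7 ± 2.38% in daf-2 animals. For pqn-27, E01G4.4c.1 held 70.5 ± 3.27% in double mutants and 47.7 ± 11.1% in daf-2 animals at 60 h, and 69.8 ± 3.48% in double mutants and 72.8 ± 5.26% in daf-2 animals at 52 h (SD, n = 3 each). A wider gap with a wider spread was seen for pqn-62, whose T03G11.1d.1 held 65.8 ± 17.7% in double mutants and 74.3 ± 4.66% in daf-2 animals at 60 h, and 90.2 ± 8.52% in double mutants and 51.0 ± 20.98% in daf-2 animals at 52 h. These shares rest on the authors' quantification and the genes were chosen after the values were seen, so no test was made.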

How the data were processed

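Polyadenylated RNA of whole animals was sequenced in 12 libraries, made with a stranded kit per the labels. The authors quantified transcripts with kallisto 0.46.1 on WBcel235, per the submitters' processing notes, and deposited an estimated count, a length and a TPM value for each of 36172 transcripts. The transcriptome release is not given in the sources used here. Transcripts were summed to genes with the Ensembl annotation of WBcel235 (31502 matched exactly, 4581 by sequence name, 89 not matched), and the sums were rounded. A sum was whole within 0.01 plus a relative 1e-05.

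All 12 libraries entered 1 edgeR 4.0.16 fit (R 4.3.3) with a mean per group, TMM and filterByExpr, leaving 16371 genes. Each of 5 contrasts was tested by quasi-likelihood with 8 residual degrees of freedom from the design, at a Benjamini-Hochberg adjusted p under 0.05. Standard errors follow from the fold change and F. Named members were, per contrast, the 5 largest called changes each way with mean log2 CPM not under 3, and the 6 highest mean TPM. Members and lists were chosen with earlier results of these data known. Alternatives were a replicate block, RLE scaling, no filter, a filter of 50 counts in 3 libraries, DESeq2 1.42.0, a length offset (lowess, span 0.3), 2 groups only, whole-count genes only and each library left out. Summing neighbouring members was added after the data were seen. Same-numbered libraries had deviations that correlated above 0.1 in all 3 pairs between the genotypes at 52 h (0.124 to 0.231) and between the times in double mutants (0.109 to 0.356), so replicate numbers were taken to pair those groups only. Between the times in double mutants, differently numbered libraries correlated at up to 0.248, so that pairing is not certain. The block was fitted over all 12 libraries. The code was tested on simulated counts. Replicates differed by more than sampling noise (chi-square over degrees of freedom 14.6 or more), so none was counted as a duplicate.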

Additional observations from a re-analysis of the deposited data

Results flagged for a closer look

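The change with time differed between the genotypes by the interaction test for 5 members, each with a more negative change in double mutants than in daf-2 animals. The differences in log2 change were -5.87 for abu-7, -2.3 for pqn-57, -2.07 for pqn-39, -2.03 for pqn-22 and -1.46 for pqn-37. With a replicate block the interactions of pqn-57 (adjusted p = 0.0574), pqn-39 (0.078), pqn-22 (0.0674) and pqn-37 (0.0821) were no longer called. With the length trend removed that of pqn-37 was also lost (0.0516), and those of abu-15, pqn-42 and pqn-94 were called. For abu-7 the reads are shared within its cluster. The summed cluster did not pass, but most of that sum was abu-8, so it cannot decide about abu-7. Single outlying libraries were not looked for, as groups of 3 are too small.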

How the results depend on the processing

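By same-numbered deviations, replicate numbers were taken to pair the libraries in the genotype comparison at 52 h and the time comparison of double mutants. The other comparisons were not taken as paired, with correlations down to -0.583. With a replicate block, the genotypes gave 16 called members at 60 h and 0 at 52 h, time gave 30 in double mutants and 20 in daf-2 animals, and the interaction gave 1 (abu-7). Over all genes the shares called with the block were 29.4%, 0.513%, 37.7%, 33.2% and 5.63% in the same order. The interaction gave 16 members with DESeq2 (20.8% of all genes) and 3 with whole-count genes only. The 60 h genotype groups fitted alone gave 3 (14.6% of all genes). Leaving out 1 library each gave 6 to 36 members between genotypes at 60 h and 0 at 52 h, 17 to 37 with time in double mutants, 17 to 24 with time in daf-2 animals and 1 to 24 in the interaction. Over all genes the shares called in these fits were 18.1% to 45.5%, 0.235% to 0.751%, 21.8% to 50.1%, 26.7% to 38.8% and 3.87% to 28% in the same order. With the length offset, the change with time in double mutants reversed for pqn-62 (0.0915) and pqn-68 (-0.1), neither of them called, and these are the only called values that changed sign under an alternative. With neighbours summed, the cluster of abu-7 was not called for genotype at 60 h (-1.13) or the interaction (-1.84). Most of that sum was abu-8, so it does not test abu-7. The causes of these changes were not tested. Members with few or shared counts, at 3 libraries per group, limit what can be told apart.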
